A study of Mus musculus with 2 samples.

Results

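The purinergic genes described here are 8 of the 31053 genes counted in 2 droplet libraries of sorted cells from mouse glioma. They were chosen by name, with earlier results of these data known. *P2ry12*, *P2ry13* and *P2ry6* encode G protein-coupled receptors for extracellular nucleotides. *P2rx4* and *P2rx7* encode ion channels opened by ATP. *Entpd1* (CD39) and *Nt5e* (CD73) encode enzymes of the cell surface that break nucleotides down, and *Adora2a* encodes an adenosine receptor. All 8 genes had unique molecular identifiers (UMIs, counted RNA molecules) in both libraries.

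ATP that leaves stressed or dying cells is a danger signal for macrophages. CD39 removes phosphates from ATP and ADP to give AMP, and CD73 turns AMP into adenosine, which acts on receptors such as the product of *Adora2a* and is known to dampen T cell and NK cell activity. In the brain, P2RY12 senses ADP and guides microglial processes to injury, and its loss is widely used as a sign that microglia have left the resting state.

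Both groups were C57BL/6 mice that carried an intracranial GL261 tumor, a mouse glioma cell line, started from 100000 cells. The WT group was wild type for CD169-DTR, and the CD169-DTR group was heterozygous for it. In CD169-DTR mice the diphtheria toxin receptor is expressed from the *Siglec1* locus, which encodes CD169, so that 1 copy of *Siglec1* is lost and CD169+ cells can be killed by diphtheria toxin. Mice of both groups were given the toxin on days -1 and 4 relative to tumor injection, and live CD45.2+ cells of the right hemisphere were sorted 10 days after it. Age is not given in the labels. Each group is 1 library of pooled mice. There is thus no replicate, the spread between mice is unknown, and a difference between the libraries cannot be told apart from a difference between the genotypes. Ranges in square brackets are 95% intervals that cover counting error only, exact Poisson for levels, exact binomial for shares and exact conditional for ratios.

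A barcode counted as a cell from 1000 UMIs upward, unless mitochondrial genes held over 17% of them. There were 10107 cells in WT and 7604 in CD169-DTR, and their median depth was 7776 and 8099 UMIs. Levels are in CPM, the usual scaling of counts for depth, here the UMIs of a gene over all UMIs of its class, cluster or state. Cells were clustered without the 8 genes and named from marker lists that do not hold them. *Siglec1*, the targeted gene, was at 17.8 CPM in all WT cells and 5.46 CPM in all CD169-DTR cells, and it was lower in CD169-DTR in macrophages (40.6 against 13.7 CPM) and microglia (18.9 against 5.61 CPM) alike. Microglia were 46.9% of WT and 70.6% of CD169-DTR cells, macrophages 20.7% and 7.71%, and dendritic cells 11.6% and 3.20%. No cluster was named border-associated macrophages, and endothelial, choroid plexus and pericyte clusters were found despite the CD45.2+ gate. Microglia had all 10 microglial markers, at a summed 22133 and 23008 CPM in WT and CD169-DTR.

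*P2ry12* and *P2ry13* are neighbours in the genome, and their promoters are shown because microglia held most UMIs of both genes. On GRCm38, *P2ry12* (ENSMUSG00000036353) spans chr3:59216272-59262871 and *P2ry13* (ENSMUSG00000036362) spans chr3:59207892-59210882, both on the minus strand and 5389 bases apart. Both lie within *Med12l*, which is on the plus strand, and the library type keeps strand. *P2ry14*, a receptor gene for UDP-glucose, follows 54273 bases from *P2ry13*. The 250 bases before each start site are printed 5′ to 3′ from RefSeq (GRCm38.p6), at chr3:59262986-59263235 for *P2ry12* and chr3:59210883-59211132 for *P2ry13*, both minus strand. Capitals mark AGGAAG, a core that transcription factors of the ETS family can bind.
P2ry12: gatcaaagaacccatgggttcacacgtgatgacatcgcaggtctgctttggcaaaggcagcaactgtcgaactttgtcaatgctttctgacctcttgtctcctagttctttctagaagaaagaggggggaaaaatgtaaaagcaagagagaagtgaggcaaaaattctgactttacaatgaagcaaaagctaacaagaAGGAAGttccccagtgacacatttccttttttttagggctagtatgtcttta
P2ry13: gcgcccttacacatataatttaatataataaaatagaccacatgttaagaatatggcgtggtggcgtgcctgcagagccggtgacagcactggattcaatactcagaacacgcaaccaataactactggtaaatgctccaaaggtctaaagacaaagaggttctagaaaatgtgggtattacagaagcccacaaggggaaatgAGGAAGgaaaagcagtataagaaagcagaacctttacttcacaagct
The motif ended 46 bases before the start in *P2ry12* and 41 bases before it in *P2ry13*. On either strand (AGGAAG or CTTCCT) it was in 29.5% of all 32851 windows of this length, so that a match is a description and not a site. Of the 8 genes, 6 had a window among these, with 8 windows together. The motif was in 4 of these 8 windows, which belonged to 4 different genes. *P2rx7* and *Entpd1* had more windows than the others, so the 29.5% compares with the windows and not with the genes.

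The other pair of neighbours is *P2rx7* (ENSMUSG00000029468, chr5:122643911-122691432) and *P2rx4* (ENSMUSG00000029470, chr5:122707544-122729738), both on the plus strand and 16111 bases apart. *P2ry6* (ENSMUSG00000048779) spans chr7:100937630-100974649. *Entpd1* (ENSMUSG00000048120) spans chr19:40612366-40741602, *Nt5e* (ENSMUSG00000032420) chr9:88327197-88372092 and *Adora2a* (ENSMUSG00000020178) chr10:75316877-75334784. The span of *Entpd1* also holds the pseudogenes *Gm16027* and *Gm8783* and the intronic transcript *AC166063.1* on its own strand.

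*P2ry12*, the ADP receptor of microglia, was the gene most concentrated in 1 class. Of its UMIs, microglia held 90.9% in WT and 95.9% in CD169-DTR. Its level in microglia was 1091 CPM [1081, 1101] in WT and 1257 CPM [1248, 1267] in CD169-DTR. In macrophages it was 106 CPM [102, 111] in WT and 94.1 CPM [87.7, 101] in CD169-DTR. The microglial level was 10.3 and 13.4 times that of macrophages, with no overlap of the intervals. A small cluster named erythroid from hemoglobin genes (67 and 77 cells) had 1913 and 1588 CPM. That cluster also exceeded microglia in *P2ry13*, *P2ry6*, *P2rx7* and *Entpd1*, which goes against its name, and it is left out of the orders of classes given here. A small lymphocyte cluster held regulatory T cell markers such as *Foxp3* and *Ctla4*, but *Calca*, *Il13*, *Il5*, *Areg* and *Il1rl1*, genes of type 2 lymphocytes, led it as well and go against that name. It is called the *Calca* *Foxp3* cluster here.

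*P2ry13*, a second ADP receptor, was also highest in microglia. It was at 335 CPM [329.5, 340.5] in WT and 367 CPM [362, 373] in CD169-DTR. Macrophages had 41.1 CPM [38.2, 44.3] in WT and 50.5 CPM [45.8, 55.5] in CD169-DTR, a difference of 8.14-fold and 7.28-fold. Granulocytes stood between these classes with 109 and 119.9 CPM, and carried microglial markers at a summed 3016 and 3744 CPM, whose part in this level was not tested.

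*P2ry6*, a receptor for UDP that is linked to phagocytosis by microglia, was spread over microglia and macrophages. Its level was 305 CPM [299, 309.8] in WT and 300.3 CPM [296, 305] in CD169-DTR microglia, and 200.1 CPM [194, 207] in WT and 204 CPM [194, 214] in CD169-DTR macrophages. Microglia were thus higher by 1.52-fold and 1.47-fold. Dendritic cells had 87.9 and 108 CPM, B cells 96.4 and 44.7 CPM and granulocytes 91.1 and 70.0 CPM. NK cells were lowest in WT, at 2.41 CPM from 4 UMIs.

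*P2rx4*, an ATP-gated channel found largely on lysosomes, was the only member with at least 100 UMIs in both libraries whose level was higher in macrophages than in microglia. Macrophages were at 296 CPM [288, 304] in WT and 253 CPM [242, 264] in CD169-DTR, and microglia at 209.6 CPM [205, 214] in WT and 172 CPM [169, 176] in CD169-DTR. Dendritic cells followed with 140.1 and 144 CPM. Among these, the cluster with *Ccr7* and *Ccl22*, genes of migratory dendritic cells, had 202 CPM [181, 225] in WT and 175 CPM [127, 235] in CD169-DTR. Of *P2rx4* UMIs, microglia held 52.5% in WT and 73.0% in CD169-DTR and macrophages 29.6% in WT and 17.4% in CD169-DTR.

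*P2rx7*, the channel whose opening by high ATP can activate the NLRP3 inflammasome, was under 100 CPM in all classes but 1, with the erythroid cluster left out. Microglia had 77.4 and 87.4 CPM in WT and CD169-DTR, and macrophages had 33.0 CPM [30.3, 35.8] in WT and 38.8 CPM [34.7, 43.2] in CD169-DTR. The microglial level was 2.35 and 2.26 times that of macrophages. CD169-DTR gamma-delta T cells had 188 CPM, but this rests on 14 UMIs, of which 11 were in 1 cell, and the WT value was 15.2 CPM.

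**Figure D1:**
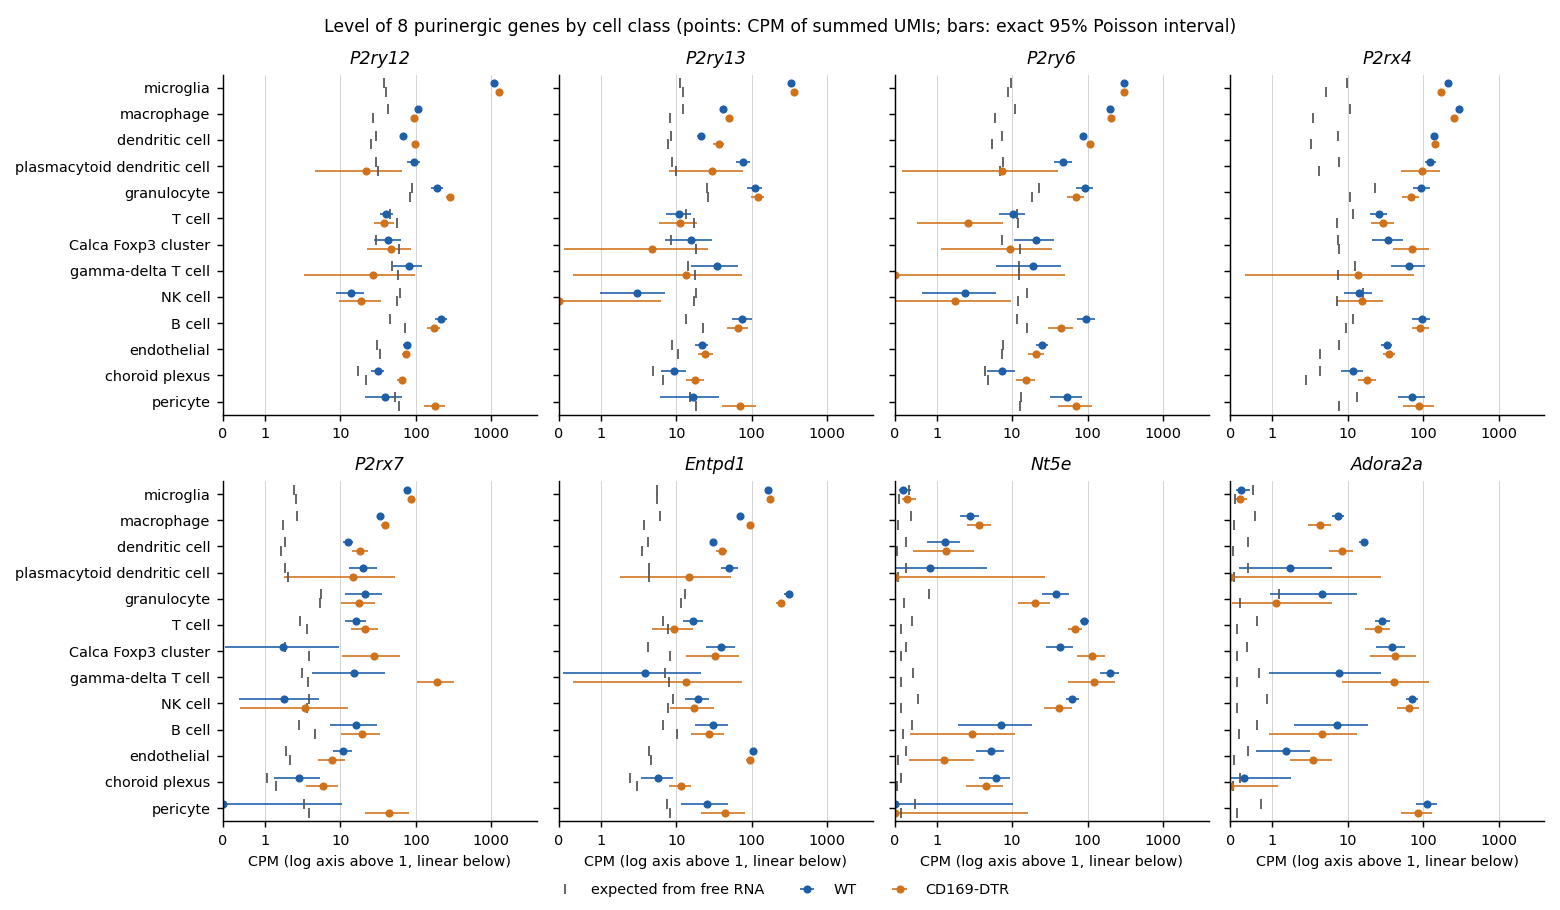
Level in CPM (x axis, logarithmic above 1 and linear below) of each of the 8 genes by cell class in WT (blue) and CD169-DTR (orange), with exact 95% Poisson intervals as bars and grey ticks at the level that free RNA alone would give. The erythroid cluster is not plotted. P2ry12 and P2ry13 peak in microglia in both libraries, Entpd1 peaks in granulocytes at 308 and 243 CPM, and Nt5e and Adora2a lie below 1 CPM in microglia.

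*Entpd1*, the CD39 gene, had its highest class level in granulocytes. These were at 308 CPM [267, 354] in WT and 243 CPM [212, 278] in CD169-DTR. Microglia followed at 163 CPM [159, 167] in WT and 174 CPM [170.3, 177] in CD169-DTR, a log2 ratio of microglia over granulocytes of -0.92 [-1.12, -0.71] in WT and -0.48 [-0.68, -0.28] in CD169-DTR. Endothelial cells, where CD39 is known to limit clotting, had 105 and 94.3 CPM and macrophages 70.7 and 95.9 CPM. Since microglia were far more numerous, their part of *Entpd1* UMIs was 71.7% in WT and 83.8% in CD169-DTR, and that of granulocytes 2.08% in WT and 2.03% in CD169-DTR.

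*Nt5e*, the CD73 gene, was highest in other cells than *Entpd1*. Gamma-delta T cells had 198 CPM [148, 259.6] in WT and 121 CPM [55.4, 229.9] in CD169-DTR, from 37 and 11 cells. T cells were at 90.9 CPM [79.6, 103] in WT and 68.8 CPM [54.6, 85.6] in CD169-DTR. NK cells were at 62.7 CPM [51.2, 76.0] in WT and 41.4 CPM [26.5, 61.6] in CD169-DTR. T cell and NK cell intervals did not overlap in WT and overlapped in CD169-DTR. Among myeloid classes, granulocytes had the highest level, from 25 WT and 18 CD169-DTR UMIs, and it was 38.0 CPM in WT. Microglia had 9 UMIs in 4739 WT cells and 16 UMIs in 5369 CD169-DTR cells, which is 0.210 and 0.307 CPM, where free RNA alone would give 0.348 and 0.108 CPM.

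*Adora2a*, the receptor for the adenosine that CD73 makes, was high in pericytes, NK cells and 1 cluster of dendritic cells. Pericytes, the mural cells of capillaries, had 112 CPM [80.3, 153] in WT and 84.2 CPM [50.7, 131] in CD169-DTR. NK cells had 70.5 CPM [58.3, 84.5] in WT and 63.9 CPM [45.0, 88.0] in CD169-DTR. T cells were lower, at 28.7 CPM [22.5, 36.1] in WT and 24.9 CPM [16.7, 35.8] in CD169-DTR. Among dendritic cells the *Ccr7* *Ccl22* cluster had 122 CPM [105, 140.0] in WT and 87.7 CPM [55.0, 133] in CD169-DTR, from 148 and 15 cells. The *Cd209a* cluster had 2.72 and 2.83 CPM, so that the level differed by 44.7-fold in WT. The *Xcr1* *Clec9a* cluster had 0.952 and 1.49 CPM. Microglia were at 0.256 and 0.230 CPM.

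Shares of cells with a UMI gave the same picture for the enzymes and *Adora2a* after every cell was thinned to 3000 UMIs, which makes shares comparable across depths. *Nt5e* had a UMI in 20.3% [15.9, 25.3] of WT and 10.9% [6.48, 16.9] of CD169-DTR T cells, against 0.0881% and 0.0575% of microglia. Before thinning, the shares were 35.0% and 25.6% of T cells (median 6088 and 6788 UMIs) and 0.148% and 0.261% of microglia (median 7632 and 7880 UMIs). *Nt5e* was thus found mostly in lymphocytes at both depths. *Adora2a* had a UMI in 18.9% [14.3, 24.3] of WT and 16.2% [8.95, 26.2] of CD169-DTR NK cells, and in 28.0% [20.8, 36.1] and 33.3% [11.8, 61.6] of *Ccr7* *Ccl22* dendritic cells. The share in microglia was 0.0440% and 0.0575%.

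*Entpd1* had a UMI in 52.6% [40.9, 64.0] of WT and 49.7% [41.3, 58.1] of CD169-DTR granulocytes and in 41.4% and 43.1% of microglia, against 2.07% and 2.37% of choroid plexus cells (median 14550 and 12530 UMIs). The thinning left out 91 of 169 WT and 49 of 194 CD169-DTR granulocytes, whose median depths were 2924 and 3629 UMIs. Before thinning, 63.3% and 58.8% of granulocytes and 69.6% and 72.8% of microglia had a UMI, so that the order of these 2 classes was the reverse at unequal depth.

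**Figure D2:**
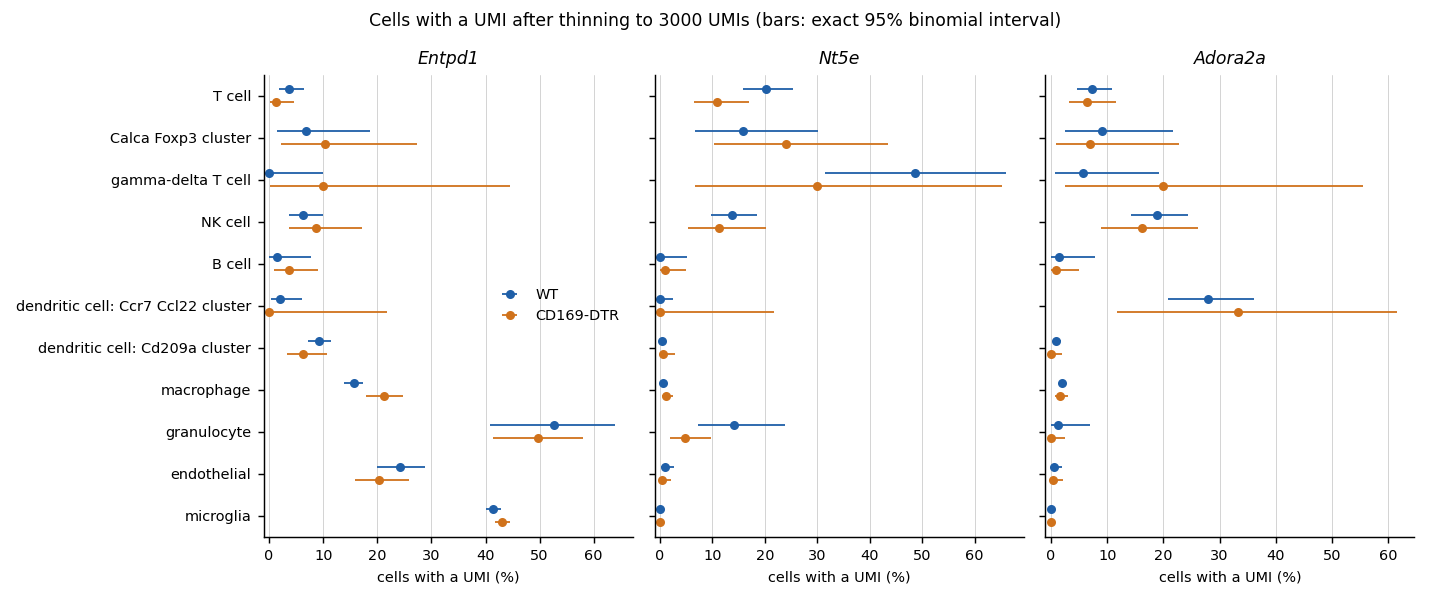
Share of cells with at least 1 UMI of Entpd1, Nt5e or Adora2a (percent, x axis) after thinning each cell to 3000 UMIs, by cell class or cluster, in WT (blue) and CD169-DTR (orange), with exact 95% binomial intervals as bars. Entpd1 shares are highest in granulocytes and microglia, Nt5e shares in lymphocytes other than B cells and Adora2a shares in Ccr7 Ccl22 dendritic cells at 28.0% and 33.3%.

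Cells with UMIs of both enzymes were rare. *Entpd1* and *Nt5e* had UMIs together in 0 of 300 WT and 0 of 156 CD169-DTR thinned T cells, with exact upper bounds of 1.22% and 2.34%. The product of the separate shares gives 0.746% and 0.140%, so that a lack of such cells was not detectable at this depth. In the *Calca* *Foxp3* cluster, 0 of 44 WT and 2 of 29 CD169-DTR cells had both.

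For *P2ry12*, levels in T cells and NK cells did not exceed the estimate for free RNA. Free RNA, taken from barcodes of 10 to 100 UMIs, held 493 CPM of *P2ry12* in WT and 833 CPM in CD169-DTR. It was estimated at 10.5% and 7.25% of lymphocyte UMIs. The estimate counts all UMIs of microglial markers other than *Cx3cr1* in T cells, NK cells and B cells as free RNA. *P2ry12* follows such markers closely, so the comparison cannot decide whether T cells or NK cells have *P2ry12* RNA of their own. NK cells measured 13.9 and 19.0 CPM, where free RNA alone would give 62.4 and 56.3 CPM. T cells measured 40.5 and 37.8 CPM, where free RNA alone would give 46.1 and 55.4 CPM. After thinning, a *P2ry12* UMI was found in 82.9% [81.7, 84.0] of WT and 86.2% [85.2, 87.1] of CD169-DTR microglia, in 11.8% and 14.4% of macrophages and in 6.00% and 7.05% of T cells. The T cell share is given for comparison with the macrophage share. B cells, at 218 and 172 CPM, were above the 45.9 and 72.6 CPM of free RNA and carried microglial markers at a summed 4423 and 3076 CPM, whose part in this level was not tested.

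Macrophage *P2ry12* came mostly or in large part from few cells. The 8% of cells of each library with the highest doublet score held 148 of 2095 WT macrophages, and these carried 75.2% of the *P2ry12* UMIs and 56.9% of the *P2ry13* UMIs of WT macrophages. In CD169-DTR, 52 of 586 macrophages carried 41.3% and 27.5%. For *P2rx4* these cells carried 9.70% and 8.35%, close to their 7.06% and 8.87% of the cells. The 8 genes and microglial markers were not kept out of the doublet score. The shares above and the ratios without these cells are thus not independent of the score. Without these cells the log2 ratio of microglia over macrophages was 5.20 in WT and 4.38 in CD169-DTR for *P2ry12*, up from 3.36 and 3.74. Free RNA was not subtracted in these ratios. Macrophages carried microglial markers at a summed 2249 and 2571 CPM, with 0 of 10 at 0.

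Microglia against macrophages gave 5 genes that were at least 0.5 higher on the log2 scale in both libraries, namely *P2ry12*, *P2ry13*, *P2ry6*, *P2rx7* and *Entpd1*. Only genes with at least 100 UMIs over both classes and at least 1 in each were counted, which left 7 of the 8 in WT and 6 in CD169-DTR. Of all such genes, 44.3% in WT and 45.0% in CD169-DTR passed this fold upward, and 62.0% in WT and 59.4% in CD169-DTR passed it either way. The median of all genes was 0.37 and 0.40, and that of the members 1.21 and 1.02. With size factors that remove this shift, *P2ry6* was at 0.23 and 0.16 and *Entpd1* at 0.83 and 0.46. *P2ry6* then missed the fold in both libraries and *Entpd1* in CD169-DTR. *P2rx4* was at -0.50 [-0.55, -0.45] in WT and -0.55 [-0.62, -0.48] in CD169-DTR, past the fold downward in CD169-DTR and just short of it in WT. *Adora2a*, measured in WT only, was at -4.84 [-5.88, -3.95].

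**Figure D3:**
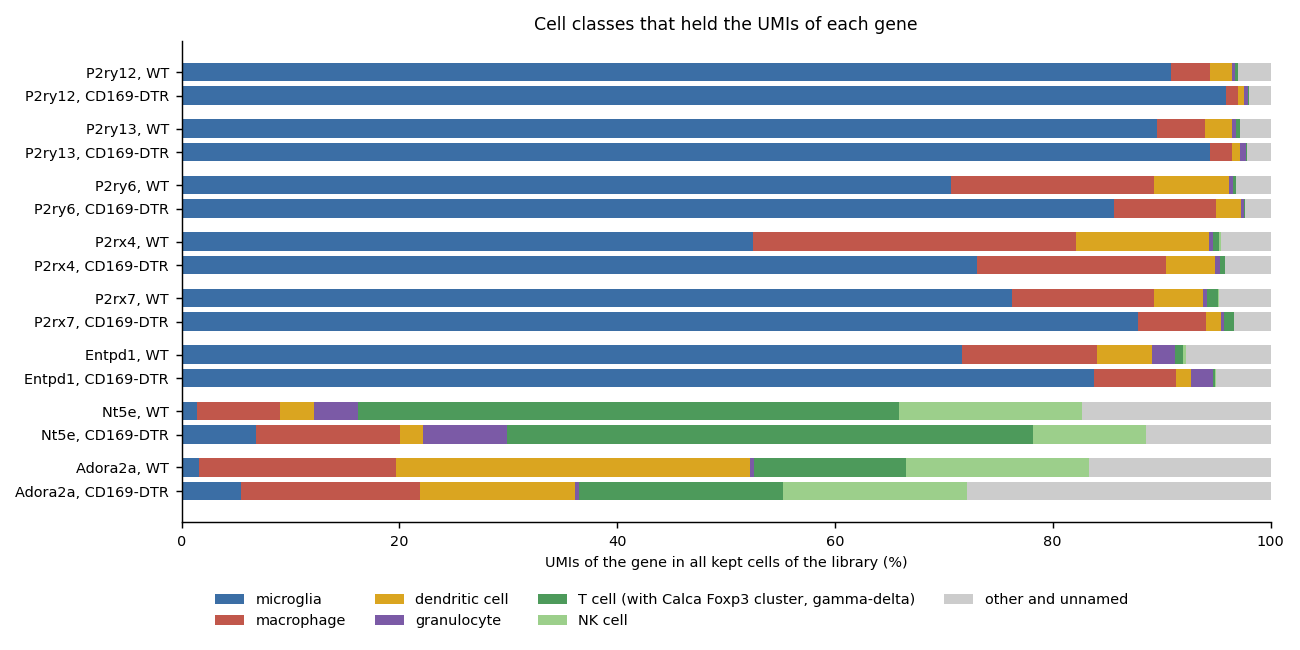
Share of each gene's UMIs (percent of its UMIs in all kept cells of a library, x axis) held by each cell class, with 1 stacked bar per gene and library. The share of microglia is 90.9% in WT and 95.9% in CD169-DTR for P2ry12 and 1.45% in WT and 6.84% in CD169-DTR for Nt5e, whose UMIs lie mostly in T cells (with the Calca Foxp3 cluster and gamma-delta T cells) and NK cells.

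By microglial state, the ADP receptors and CD39 were highest in homeostatic microglia, and *P2rx4* was lowest there. The states came from clustering the microglia again, without the 8 genes, and were named from marker lists that do not hold them. The homeostatic state held 1034 WT and 1649 CD169-DTR cells, 21.8% and 30.7% of microglia. *P2ry12* was at 3247 CPM [3199, 3295] in WT and 3119 CPM [3084, 3154] in CD169-DTR homeostatic microglia. It was at 284 CPM [271, 298] in WT and 318 CPM [303, 333] in CD169-DTR in the *Spp1* *Igf1* state. The other markers of this state were *Gpnmb*, *Lgals3*, *Fabp5* and *Lgals1*. Even this lowest state was above macrophages (106 and 94.1 CPM) in both libraries.

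The order of *P2ry12* between these ends was nearly the same in both libraries. *Lpl* *Cst7* microglia, a state known from neurodegeneration, had 1363 and 1467 CPM, S-phase cells 927 and 959 CPM and an unnamed state led by *Cxcl13* and *C4b* 658 and 775 CPM. Mitotic cells had 615 CPM [595, 635] in WT and 630.3 CPM [612, 649] in CD169-DTR. The cytokine-high state had 569 CPM [545, 595] in WT and 657 CPM [636, 678] in CD169-DTR. These 2 states changed places between the libraries, with intervals that touched in WT and overlapped in CD169-DTR. The interferon state had 454 and 564 CPM.

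*P2ry13* went from 709.7 CPM [688, 732] in WT and 744 CPM [727, 761] in CD169-DTR homeostatic microglia to 152 CPM [142, 162] in WT and 163 CPM [152, 174] in CD169-DTR *Spp1* *Igf1* microglia. *P2ry6* spanned less, from 393 and 371 CPM in homeostatic cells to 183 and 197 CPM in the cytokine-high state. *P2rx7* ranged from 105 and 109 CPM in homeostatic to 56.6 and 60.0 CPM in *Spp1* *Igf1* cells. All 3 genes shared their highest state with *P2ry12*, while *P2ry6* had another lowest state.

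*Entpd1* was at 318 CPM [303, 333] in WT and 333 CPM [322, 345] in CD169-DTR homeostatic microglia. Granulocytes, the highest class, had 308 CPM in WT, with overlapping intervals, and a lower 243 CPM in CD169-DTR. Its lowest states were mitotic cells in WT with 93.1 CPM [85.4, 101] and *Spp1* *Igf1* cells in CD169-DTR with 81.1 CPM [73.7, 89.1]. In CD169-DTR the intervals of these 2 states overlapped.

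*P2rx4* ran the other way. It was at 118 CPM [109, 128] in WT and 122 CPM [115, 129] in CD169-DTR homeostatic microglia and at 313 CPM [289, 339] in WT and 276 CPM [252, 301] in CD169-DTR interferon-state microglia. The *Spp1* *Igf1* state had 307 CPM [293, 321] in WT and 218 CPM [206, 231] in CD169-DTR, and the *Cxcl13* *C4b* state 258 and 208 CPM. In WT the interferon and *Spp1* *Igf1* intervals overlapped each other and that of macrophages, and in CD169-DTR the *Spp1* *Igf1* state was lower than both.

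**Figure D4:**
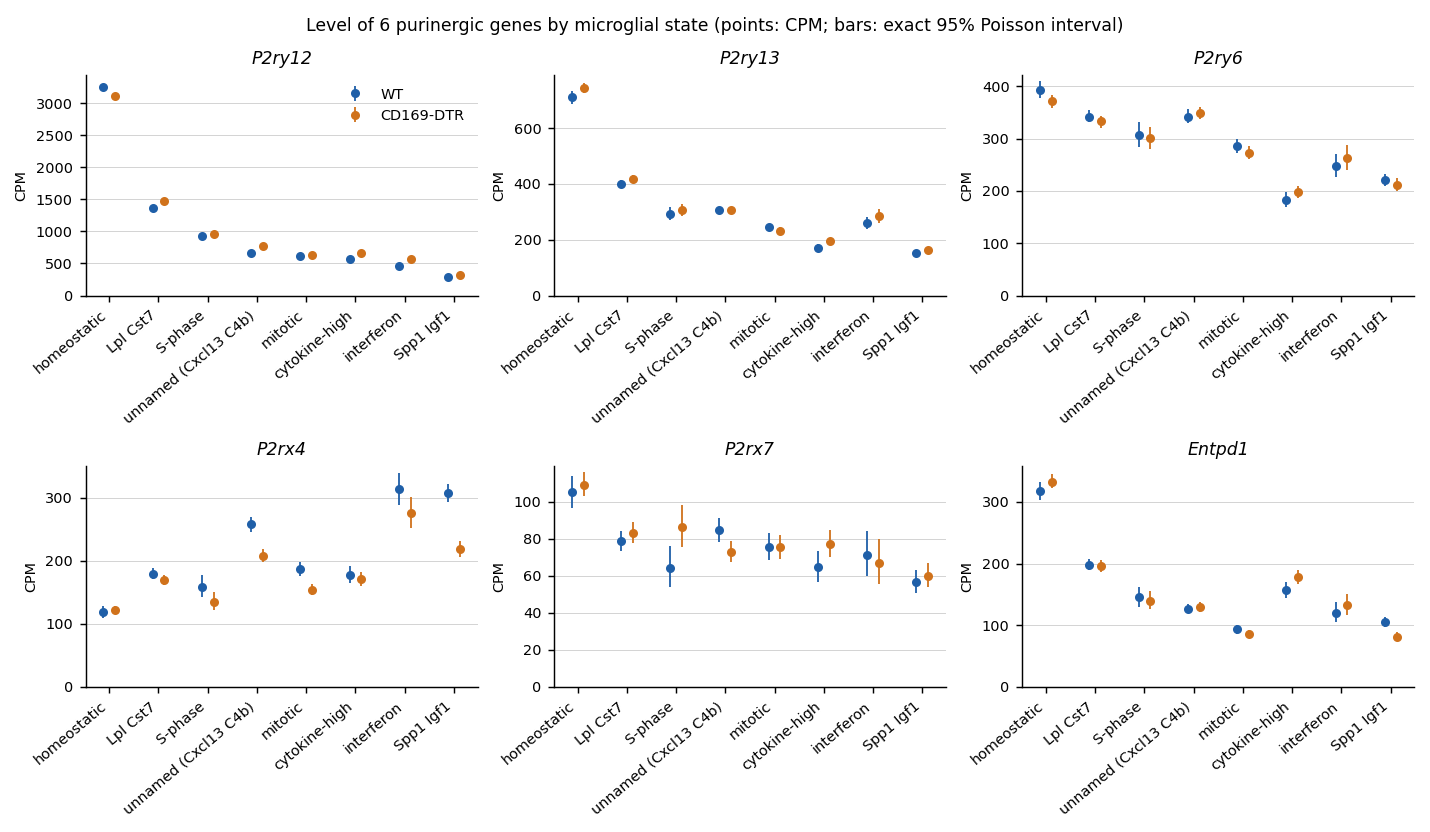
Level in CPM (y axis, linear) of 6 purinergic genes in 8 microglial states of WT (blue) and CD169-DTR (orange), with exact 95% Poisson intervals as bars. P2ry12 is at 3247 and 3119 CPM in homeostatic and 284 and 318 CPM in Spp1 Igf1 cells, and P2rx4 is at 118 and 122 CPM and 307 and 218 CPM.

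The *Spp1* *Igf1* state against the homeostatic state gave 6 of 6 measured genes past the fold in both libraries, 5 lower and 1 higher. Of all genes, 55.0% in WT and 57.9% in CD169-DTR passed it. The log2 ratio of *P2ry12* was -3.51 [-3.59, -3.44] in WT and -3.29 [-3.36, -3.22] in CD169-DTR. *P2ry13* was at -2.23 and -2.19, and *Entpd1* at -1.59 [-1.73, -1.46] in WT and -2.04 [-2.18, -1.89] in CD169-DTR. The higher gene was *P2rx4*, at 1.37 [1.24, 1.51] in WT and 0.84 [0.72, 0.95] in CD169-DTR. *P2ry6* (-0.84 and -0.81) and *P2rx7* (-0.89 and -0.86) were closer to the median of all genes, which was -0.32 and -0.36.

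These states differed in depth, at a median of 5117 and 5668 UMIs in homeostatic and 13860 and 18345 UMIs in *Spp1* *Igf1* cells. Among cells of 5000 to 15000 UMIs, 4 of the 6 genes passed the fold in both libraries, with *P2ry12* at -3.51 and -2.95 and *P2rx4* at 1.64 and 1.04. *P2ry6* (-0.37 and -0.43) missed it in both, and *P2rx7* (-0.80 and -0.49) in CD169-DTR. The share of all genes past the fold was not taken in this depth window, so the count cannot be set against it. Hemoglobin genes were among the leading genes of the homeostatic state, at 735 CPM in WT and 1.44 CPM in CD169-DTR, and granulocyte genes such as *S100a9* and *Camp* led the *Spp1* *Igf1* state. With cells above 1 UMI of either set left out, a choice made after seeing the data, *P2ry12* was at -3.51 and -3.28 and *P2rx4* at 1.37 and 0.86.

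The *Lpl* *Cst7* state against the homeostatic state showed the same directions with smaller sizes. It passed the fold for 4 of 6 genes in WT and 3 of 6 in CD169-DTR, as did 22.6% in WT and 19.0% in CD169-DTR of all genes. *P2ry12* was at -1.25 and -1.09, *P2ry13* at -0.83 and -0.83, *Entpd1* at -0.68 and -0.77 and *P2rx4* at 0.60 [0.47, 0.73] in WT and 0.47 [0.36, 0.57] in CD169-DTR. In the interferon state, where 54.1% in WT and 49.9% in CD169-DTR of all genes passed, *P2ry12* was at -2.84 and -2.47 and *P2rx4* at 1.40 and 1.18.

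WT and CD169-DTR microglia differed little in these genes. None of the 6 measured genes passed the fold of 0.5, as 4.30% of 11609 genes did. *P2rx4* was furthest from 0, with a log2 ratio of WT over CD169-DTR of 0.28 [0.24, 0.33]. *P2ry12* was lower in WT at -0.20 [-0.22, -0.19], as were *P2rx7* at -0.18 [-0.24, -0.11], *P2ry13* at -0.13 [-0.16, -0.10] and *Entpd1* at -0.09 [-0.14, -0.05]. *P2ry6* was at 0.02 [-0.01, 0.05]. The median of all genes was -0.04.

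Homeostatic cells, the state highest in *P2ry12*, were a larger share of CD169-DTR microglia. With every state given the same weight, *P2ry12* was at -0.06 and *P2rx4* at 0.22. Within the homeostatic state *P2ry12* was at 0.06 [0.03, 0.08] and *P2rx4* at -0.05 [-0.19, 0.09]. In the other 7 states *P2ry12* was below 0, at -0.31 [-0.44, -0.18] in the interferon state, -0.24 [-0.29, -0.18] in the *Cxcl13* *C4b* state, -0.21 [-0.29, -0.13] in the cytokine-high state, -0.16 [-0.26, -0.06] in the *Spp1* *Igf1* state and -0.11 [-0.14, -0.07] in the *Lpl* *Cst7* state. In S-phase (-0.05 [-0.14, 0.04]) and mitotic cells (-0.04 [-0.10, 0.03]) the interval included 0. *P2rx4* was higher in WT in the *Spp1* *Igf1* state at 0.49 [0.38, 0.60], in the *Cxcl13* *C4b* state at 0.31 [0.22, 0.40] and in mitotic cells at 0.28 [0.15, 0.40]. None of these reached the fold, which 15.2%, 9.28% and 8.38% of all genes passed in those states. *Entpd1* was also higher in WT in the *Spp1* *Igf1* state, at 0.38 [0.20, 0.56].

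In macrophages 1 of 7 measured genes passed the fold, as 16.8% of 9137 genes did. *Adora2a* was at 7.35 CPM [6.12, 8.75] in WT and 4.27 CPM [2.99, 5.91] in CD169-DTR, a log2 ratio of 0.79 [0.24, 1.36] from 126 and 36 UMIs. *Entpd1* went the other way, at 70.7 CPM [66.8, 74.8] in WT and 95.9 CPM [89.4, 103] in CD169-DTR and a ratio of -0.44 [-0.57, -0.31]. *P2rx4* was higher in WT at 0.23 [0.16, 0.30]. *P2ry12* (0.18 [0.06, 0.30]), *P2ry13* (-0.30 [-0.47, -0.12]), *P2rx7* (-0.23 [-0.43, -0.03]) and *P2ry6* (-0.03 [-0.11, 0.06]) lay within the fold.

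Without the macrophages of high doublet score described above, *P2ry12* was at 30.3 CPM in WT and 61.8 CPM in CD169-DTR, a ratio of -1.03. *P2ry13* was then at -1.01, *Entpd1* at -0.58 and *Adora2a* at 0.79. The direction of *P2ry12* thus turned with these cells. Free RNA was not subtracted from these values. With all macrophages kept, its subtraction took *P2ry12* from 106 to 69.9 CPM in WT and from 94.1 to 69.1 CPM in CD169-DTR. The 30.3 CPM left in WT is of the size of this fall, and the part of free RNA in it was not tested. With both macrophage clusters given the same weight, *Adora2a* was at 0.31 and missed the fold.

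The 2 macrophage clusters were led by *Gpnmb* and *Ms4a7* (1045 WT and 323 CD169-DTR cells) and by *Ly6c2* and *Chil3*, genes of recently recruited monocytes (1050 and 263 cells). *Adora2a* had 36 UMIs in the WT and 3 UMIs in the CD169-DTR *Gpnmb* cluster, with an interval of the log2 ratio of [1.44, 5.44], and was at -0.21 [-0.80, 0.42] in the *Ly6c2* cluster. *Entpd1* was at -0.59 [-0.76, -0.41] and -0.22 [-0.43, -0.01]. *P2rx7* was at 0.31 [0.03, 0.59] and -0.87 [-1.16, -0.57]. These are opposite directions for *P2rx7* in the 2 clusters, and the median of all genes lay on the same sides, at 0.15 and -0.15. Median depth in the *Gpnmb* cluster was 4864 UMIs in WT and 16345 UMIs in CD169-DTR, and the part of this gap in the values was not tested.

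**Figure D5:**
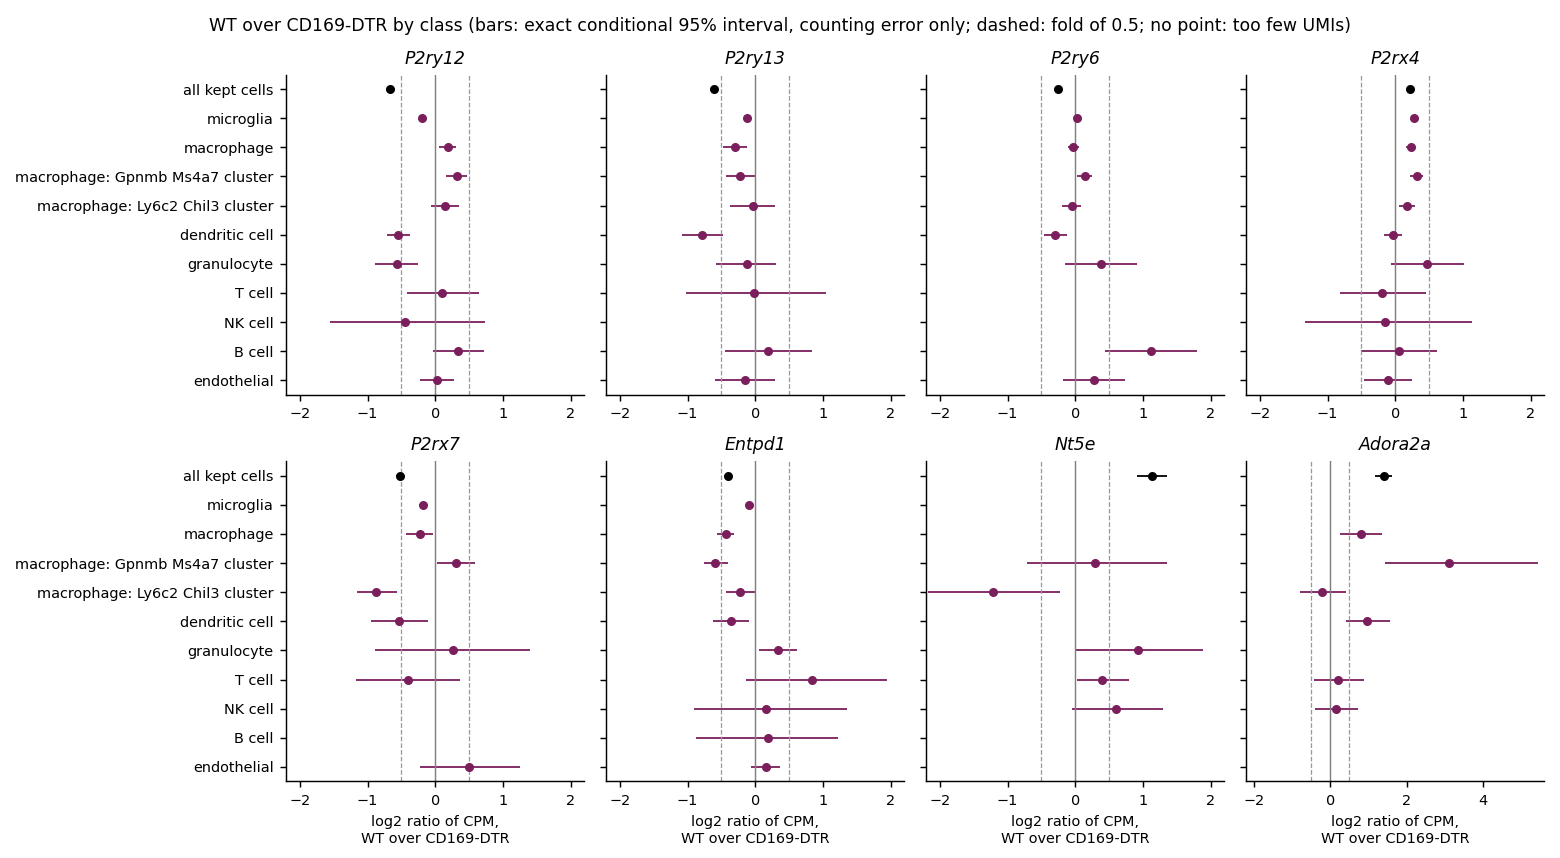
Log2 ratio of CPM, WT over CD169-DTR (x axis), of each of the 8 genes by cell class and macrophage cluster, with exact conditional 95% intervals as bars and dashed lines at the fold of 0.5; classes with too few UMIs have no point. Over all kept cells (black) Adora2a is at 1.40 and P2ry12 at -0.67, and within microglia the 6 measured genes lie between -0.20 and 0.28.

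Over all cells together the libraries differed more, and 5 of the 8 genes passed the fold, as 19.9% of all genes did. *P2ry12* was at 548 and 875 CPM in WT and CD169-DTR (-0.67), *P2ry13* at 171 and 259.6 CPM (-0.61) and *P2rx7* at 46.3 and 66.5 CPM (-0.52). *Nt5e* (6.58 and 3.00 CPM, 1.13) and *Adora2a* (7.39 and 2.81 CPM, 1.40) were higher in WT. In bulk values such as these, fewer cells of a class and less RNA per cell cannot be told apart, and the class shares given above moved with them.

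In dendritic cells 4 of 7 measured genes passed the fold of 0.5 (with at least 30 UMIs in this and the following classes), as 21.6% of all genes did. *Adora2a* was at 16.1 and 8.28 CPM in WT and CD169-DTR, a log2 ratio of 0.96 [0.41, 1.55]. Within the *Ccr7* *Ccl22* cluster, where its level was highest, it was at 0.47 [-0.17, 1.18], and within the *Cd209a* cluster at -0.06. *P2ry12* (-0.55), *P2ry13* (-0.78) and *P2rx7* (-0.54) were lower in WT, as were microglial markers, at a summed 1417 and 2125 CPM. Cells of high doublet score carried 70.1% of WT and 32.8% of CD169-DTR dendritic cell *P2ry12* UMIs.

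Among lymphocytes, *Nt5e* was higher in WT T cells at 0.40 [0.03, 0.79], short of the fold that 26.3% of all genes passed. In NK cells it was at 0.60 [-0.05, 1.30], past the fold as were 23.3% of all genes, with an interval that includes 0. In the *Calca* *Foxp3* cluster it went the other way, at 43.0 CPM [27.8, 63.4] in WT and 113 CPM [72.5, 168] in CD169-DTR and -1.40 [-2.27, -0.53], from 25 and 24 UMIs in 49 and 32 cells, where 43.7% of all genes passed. *Adora2a* was at 0.20 [-0.43, 0.88] in T cells and 0.14 [-0.40, 0.72] in NK cells. *Entpd1* in T cells was at 0.84 [-0.14, 1.94], from 43 and 11 UMIs. With free RNA subtracted, its level there went from 16.9 and 9.46 CPM to 11.2 and 1.89 CPM, with too few UMIs for a ratio. In granulocytes, where 35.2% of all genes passed the fold, *Entpd1* was at 0.34 [0.06, 0.62] and *Nt5e* at 0.92 [-0.01, 1.88].

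Microglia with a *Siglec1* UMI had less *P2ry12* than those without. At thinned depth *P2ry12* was at 603 CPM with and 1568 CPM without *Siglec1* in WT, a log2 ratio of -1.38 [-1.47, -1.29]. In CD169-DTR it was at 663 and 1689 CPM, -1.35 [-1.48, -1.22]. *P2ry13* (-0.80 and -0.81) and *Entpd1* (-0.82 and -0.87) were lower with *Siglec1*, and *P2rx4* was higher (0.58 and 0.30). Cells with *Siglec1* were deeper before thinning, at a median of 11000 against 7460 UMIs in WT and 12467 against 7897 UMIs in CD169-DTR. In WT macrophages *Entpd1* was lower with *Siglec1* as well, at -0.52 [-0.93, -0.13], and *P2ry12* was higher, at 0.65 [0.36, 0.93]. In CD169-DTR macrophages the intervals of both included 0, with *Entpd1* at -0.22 [-0.98, 0.47] and *P2ry12* at 0.07 [-0.62, 0.70]. The split kept the cells of high doublet score, which carried 75.2% of the *P2ry12* UMIs of WT macrophages.

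Genes whose log level followed each member most closely over the 14 classes of both libraries are given as a description, since these 28 profiles share libraries and free RNA. The 14 classes include the erythroid cluster, which carried microglial markers at a summed 23086 and 24142 CPM in WT and CD169-DTR. For *P2ry12* the closest genes were *Gpr34* (Pearson r = 0.965), *Tmem119* (0.963) and *Olfml3* (0.961), microglial genes also used for naming. For *P2ry13* the first was *P2ry12* (0.926), then *Tfe3* (0.921) and *Sirpa* (0.915). For *P2ry6* it was *Cebpa* (0.963), a myeloid transcription factor gene, then *Pla2g15* (0.957) and, just below it, *Lgmn*. For *P2rx4* it was the lysosomal protease gene *Ctss* (0.915), then *Irf5* (0.905) and *Gm46224* (0.903). For *Nt5e* they included *Trbc2* (0.900), a T cell receptor gene, and *Cd247* (0.897). The values were lower for *Entpd1*, with *Picalm* (0.887), *Csf1* (0.846) and *Sipa1l2* (0.842), and for *Adora2a*, with *Ptpn22* (0.811), *Cblb* (0.794) and *Slc1a5* (0.777). They were lowest at first rank for *P2rx7*, with *BC037034* (0.796), *Hps4* (0.778) and *Tspan14* (0.767). In thinned microglia, UMIs of *P2ry12* and *P2ry13* were in the same cell in 55.7% of WT and 57.7% of CD169-DTR cells, where the product of their shares gives 51.6% and 54.3%.

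Of 42 other genes of purine signalling, 25 had enough UMIs in microglia and 25 in macrophages. In microglia 1 passed the fold, *P2ry14*, at 8.57 and 5.74 CPM (0.58), as did 4.30% of all genes. In macrophages 11 passed it, 7 higher and 4 lower in WT, where 9.70% of all genes were higher and 7.10% lower. The median was 0.20 over the list and -0.02 over all genes. *Pnp*, which breaks down inosine and guanosine, was at 929 and 481 CPM (0.95), and the adenosine receptor gene *Adora2b* at 32.0 and 17.2 CPM (0.90). The inflammasome protease gene *Casp1* was at 83.8 and 52.1 CPM (0.68) and the peptidase gene *Dpp4* at 13.5 and 4.98 CPM (1.44). *P2ry14* (0.84), *Enpp4* (0.88) and *Enpp2* (0.69) were higher in WT too. *Cd38*, which consumes NAD, was lower in WT at 13.9 and 40.8 CPM (-1.55), with *Enpp1* (-0.73), the nucleoside transporter gene *Slc29a1* (-0.62) and the potassium channel gene *Kcnk13* (-0.63).

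The adenosine receptor genes differed in class. *Adora3* was at 118 and 122 CPM in microglia and 11.4 and 8.53 CPM in macrophages. *Adora1* was at 6.94 and 7.76 and 0.525 and 0.593 CPM. *Adora2b* was at 0.699 and 0.422 CPM in microglia and 32.0 and 17.2 CPM in macrophages, so that both A2 receptor genes were under 1 CPM in microglia. Of the list, 13 were higher and 9 lower in WT microglia than in WT macrophages out of 30 with enough UMIs, and 14 and 6 out of 28 in CD169-DTR. Of all genes, 44.3% in WT and 45.0% in CD169-DTR were higher and 17.7% in WT and 14.4% in CD169-DTR lower. In the WT library, the part of the list that was higher in microglia was near that of all genes. The part that was lower in microglia was larger than that of all genes in both libraries, from 9 and 6 genes.

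The inflammasome genes next to *P2rx7* in the pathway had their own classes. *Nlrp3*, the sensor, was at 446 and 362 CPM in granulocytes and 436 and 452 CPM in cytokine-high microglia, against 66.5 and 90.1 CPM in all microglia. *Pycard*, the adaptor, was at 579 and 536 CPM in microglia and 256 and 266 CPM in macrophages, and *Gsdmd*, the pore protein, at 84.7 and 81.8 and 115 and 87.2 CPM. The transporter gene *Slc29a3* was at 234 and 225 CPM in microglia and the volume-regulated channel gene *Lrrc8a* at 33.7 and 37.0 CPM. *Enpp2* was at 10494 and 10146 CPM in choroid plexus cells, and *P2ry14* at 761 and 851 CPM in pericytes.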

How the data were processed

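Live CD45.2+ cells from the tumor-bearing hemisphere were captured with 10x Genomics 3′ v3 chemistry, 1 library per group. The authors deposited raw UMI counts per gene and barcode for all barcodes. The header of the deposited counts names Cell Ranger 3.1.0, and the submitters' processing notes name the mm10 build. Library totals were 101808996 UMIs for WT and 84065489 UMIs for CD169-DTR. Of barcodes from 1000 UMIs upward, those with over 17% mitochondrial UMIs (249 in WT, 218 in CD169-DTR) were removed. The libraries shared 21 kept barcodes, against 11.3 expected by chance. Doublets were kept, and cells of high Scrublet score were removed as an alternative.

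Libraries were integrated in Seurat 5.3.0 (R 4.3.3, Matrix 1.6.5) with 2000 variable features, 50 dimensions, then clustered with 30 dimensions at a resolution of 1. Microglia were clustered again with 20 dimensions at a resolution of 0.5. The 8 genes and the other 42 purinergic genes were kept out of the features and the marker lists. A class needed at least 3 detected markers and 50 cells, except among lymphocytes, which were clustered again with no minimum of cells. UMIs were summed per class and library and divided by all UMIs of the class (CPM). Shares of cells were taken after thinning each cell to 3000 UMIs, which leaves out shallower cells. Ratios were called past the fold at 0.5 or more on the log2 scale with at least 100 UMIs (30 UMIs in WT against CD169-DTR for classes other than microglia and macrophages and for clusters and states). With 1 library per group no test was possible. Genes were named by rule: the 8 members, the 12 other purinergic genes with the most UMIs, those past the fold in microglia or macrophages, and the 3 genes with the highest Pearson r of log2(CPM + 1) with each member among genes of at least 500 UMIs. Of these, 1 gene is not reported here. Members and lists were chosen with earlier results of these data known. Gene positions are from the GENCODE annotation of GRCm38 and promoters from RefSeq.

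The alternatives were median-of-ratios size factors, minimums of 2000 UMIs per cell and 20 UMIs per gene, a mitochondrial maximum of 10%, subtraction of free RNA, equal weights for cells, clusters or states, merging without integration, other resolutions, a fold of 1, a depth window and thinning to 1000 UMIs. Other steps used scanpy 1.11.5, scipy 1.17.1, pandas 2.3.3, matplotlib 3.10.9 and numpy 2.4.6 in Python 3.11.15. Of these, only the log2 ratio, its fold and its interval were tested on simulated counts, for microglia, macrophages, dendritic cells and T cells.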

Additional observations from a re-analysis of the deposited data

Results flagged for a closer look

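*P2ry12* went in opposite directions in 2 classes. WT over CD169-DTR gave a log2 ratio of -0.20 in microglia and 0.18 in macrophages, and the interval of each lay on its own side of 0. The difference was not tested, since each group has 1 library. Without the cells of high doublet score, the macrophage value was -1.03, and with every cell given the same weight it was -0.19, both in the same direction as in microglia. The value of -1.03 rests on 30.3 CPM in WT, from which free RNA was not subtracted. It also depends on a doublet score that did not leave out *P2ry12*.

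*P2rx7* went in opposite directions in the 2 macrophage clusters, at 0.31 in the *Gpnmb* *Ms4a7* cluster and -0.87 in the *Ly6c2* *Chil3* cluster. This difference was not tested either, and the median of all genes lay on the same sides, at 0.15 and -0.15.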

How the results depend on the processing

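No paired analysis was possible because each group has 1 library. In microglia the count of members past the fold stayed at 0 of 6 except with a minimum of 20 UMIs, which gave 1, *Nt5e*, from 25 UMIs. In macrophages the count of 1 became 4 without the cells of high doublet score, and 0 with every cluster given the same weight (*Adora2a* at 0.31), with libraries merged without integration (*Adora2a* at 0.46) and with a fold of 1. At the main settings 4.30% of all genes passed the fold in microglia and 16.8% in macrophages. The shares under the alternatives are not given, so the counts under them cannot be set against all genes. The share of microglia with a *P2ry12* UMI was 57.6% in WT and 64.4% in CD169-DTR after thinning to 1000 UMIs. Alternatives on hemoglobin and granulocyte UMIs, on equal weights of states, and on free RNA in the other classes and the states were chosen after seeing the data. Depth limits *Nt5e* and *Adora2a* in myeloid cells and all genes in the small lymphoid clusters of CD169-DTR. Free RNA, doublets and the mix of clusters move with several levels outside microglia, and no interval covers the spread between mice.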
